A study of Mus musculus with 46 samples.

Results

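The response of MC-38 tumors to 2 doses of PD-1 antibody was measured against isotype control in 10 of the 46 samples of the series. They were chosen by their group labels, 5 tumors from mice given the anti-mouse PD-1 antibody muDX400 (PD-1 Ab-treated) and 5 from mice given an isotype control antibody (isotype). MC-38 is a mouse colon carcinoma cell line that grows as a subcutaneous tumor in C57/BL6 mice. All 10 hosts were wild-type C57/BL6NTac females, 8 to 10 weeks old, with an intact Pdcd1 gene. Each had received 1000000 MC-38 cells in the right flank and was randomized on day 7. The antibody was given at 5 mg/kg on days 7 and 11, and tumors were taken on day 15, which the labels count as day 8 of treatment. The clone and dose of the isotype antibody are not given in the sources used here. Whole tumor pieces were frozen and read as bulk RNA, so cancer cells, leukocytes, vessels and any attached host tissue share each value. Values are FPKM, fragment numbers divided by the length of the transcript and by the size of the library, which can be compared between genes because they are per length. The other samples used were 10 tumors of the same design taken on day 11 after 1 dose and 3 cultures of the MC-38 line.

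PD-1 is an inhibitory receptor that activated T cells place on their surface. Its ligands PD-L1 and PD-L2 occur on tumor and myeloid cells, and binding dampens signaling through the T-cell receptor. Activated CD8 T cells kill through perforin and granzymes and secrete IFN-gamma, which changes transcription in neighboring cells. Interferons act through a DNA element called GAS and a related element called ISRE, which IRF proteins bind. Genes under this control include the guanylate-binding proteins, antigen presentation genes, the chemokines that attract CXCR3-bearing T cells and PD-L1 itself.

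FPKM summed to 455797 to 569885 in the isotype tumors and 459622 to 491243 in the PD-1 Ab-treated tumors, and mitochondrial genes held 2.89% to 3.96% of it in all 10. The number of reads behind each value is unknown, since FPKM does not keep it. Correlations of log2 values across genes had a median of 0.971 within the isotype group, 0.962 within the PD-1 Ab-treated group and 0.938 between the groups. A pair of tumors stood apart. PD-1 Ab-treated replicate 5 lay closer to the isotype tumors in many genes that the other 4 treated tumors raised. When genes were called without it, the 1448 genes called higher sat at a median of only 0.49 above the isotype mean in that tumor on the log2 scale, against 1.54 to 2.06 in each other treated tumor measured the same way. Isotype replicate 3 differed from the rest of its group by transcript length. Its short transcripts, under 1500 bases, were 0.48 higher in the median and those of at least 8000 bases 0.71 lower on the log2 scale. Smaller slopes of the same sign were present in isotype replicate 5 (0.21 to -0.33) and PD-1 Ab-treated replicate 4 (0.16 to -0.29). With values adjusted for transcript length, an alternative added after seeing the data, 802 genes were called higher and 41 lower, and 760 of the 799 original calls were among them. Each fit was also repeated with 1 tumor left out, and the count of a gene list is given without a tumor where that moved it by over 1.5 times.

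**Figure D1:**
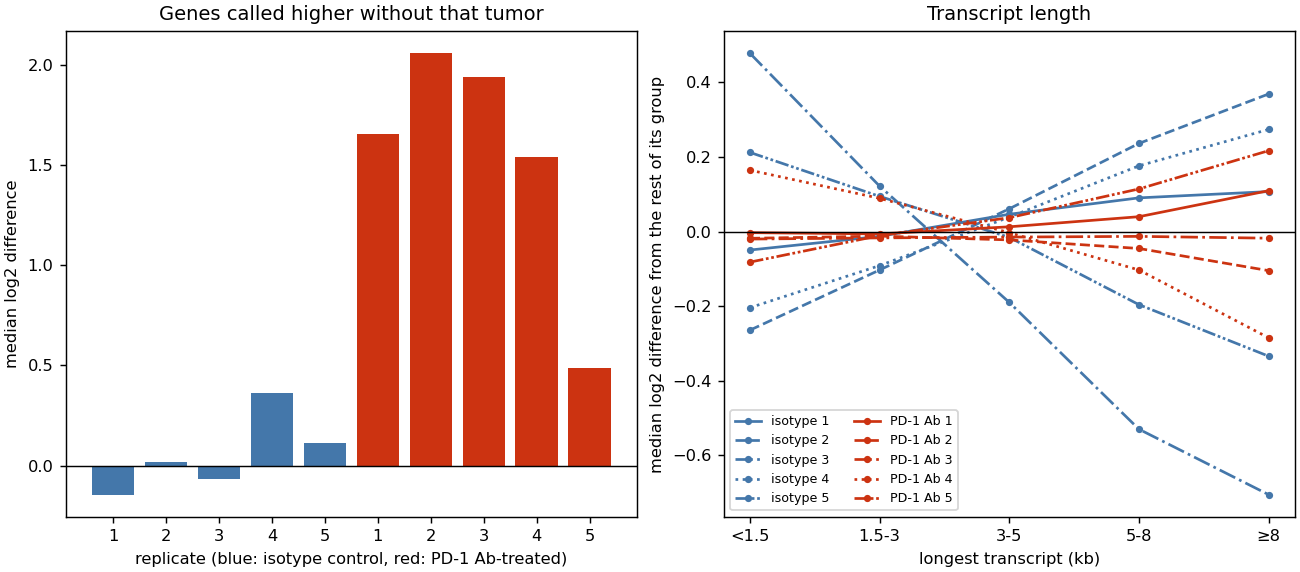
Left, for each tumor the median log2 difference from the isotype mean over the genes called higher when that tumor was left out (bars, FPKM + 0.1), with PD-1 Ab-treated replicate 5 at 0.49 and the other treated tumors at 1.54 to 2.06. Right, the median log2 difference of each tumor from the rest of its own group in 5 classes of transcript length in kilobases, where isotype replicate 3 runs from 0.48 to -0.71.

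limma was run on log2(FPKM + 0.1) for 15062 genes whose mean reached 0.5 FPKM in isotype or treated tumors. Calls needed an adjusted p under 0.01 together with at least a 2-fold difference. After the values of a gene, brackets give its log2 fold change (treated over isotype) ± SE and the adjusted p from limma, and other means are given ± SD (n = 5). By this rule 758 genes (5.03% of those tested) were higher and 41 (0.272%) lower in PD-1 Ab-treated tumors. These 2 shares are the background for each list count given below. With no limit on the fold, 1008 (6.69%) were higher and 235 (1.56%) lower. Irrespective of any p, 1390 genes (9.23%) had every treated tumor above every isotype tumor and 922 (6.12%) had every treated tumor below. The median log2 fold change of the called higher genes was 1.59, with 202 genes at 4-fold or more, 25 at 8-fold or more and 3 at 16-fold or more. The called lower genes had a median of -1.29, and 8 of them fell 4-fold or more. In 673 of the 758 higher genes and 37 of the 41 lower genes the groups did not overlap. Protein coding were 723 of the higher and 32 of the lower genes, beside 13241 of the 15062 tested genes. The median over all tested genes was -0.04, and -0.10 after upper-quartile scaling. Without PD-1 Ab-treated replicate 5 the counts rose to 1448 higher and 86 lower genes, and 797 of the 799 original calls were among them. Leaving out PD-1 Ab-treated replicate 3 instead gave 361 and 14.

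All 17 genes of the T-cell receptor complex and its proximal signaling were called higher, with a median log2 fold change of 2.46 (lowest 1.42, highest 3.04). Cd3e measured 0.932, 1.55, 2.77, 3.27 and 2.46 FPKM in the isotype tumors and 12.1, 19.0, 15.9, 15.1 and 4.48 FPKM in the PD-1 Ab-treated tumors (2.52 ± 0.41, adjusted p 0.00219). Cd3e encodes a signaling chain of the receptor, and every treated tumor lay above every isotype tumor. Its partner Cd3g rose from 2.99 ± 1.05 to 25.1 ± 10.1 FPKM. In these bulk samples more T cells and more RNA per T cell cannot be told apart. The summed FPKM of the 17 genes was 28.0 to 51.2 in isotype tumors. It was 183, 287, 239 and 207 in PD-1 Ab-treated replicates 1 to 4 and 81.4 in replicate 5. The receptor variable segments were mostly below the filter, but more of them were above 0 in treated tumors. Of 128 alpha segments, between 6 and 12 were above 0 in an isotype tumor and 10 to 36 in a treated tumor, and of 35 beta segments 1 to 8 and 6 to 18. Trbc1, a beta-chain constant gene, was called, but 40.5% of its 50-base stretches also occur in other genes, mainly Trbc2.

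**Figure D2:**
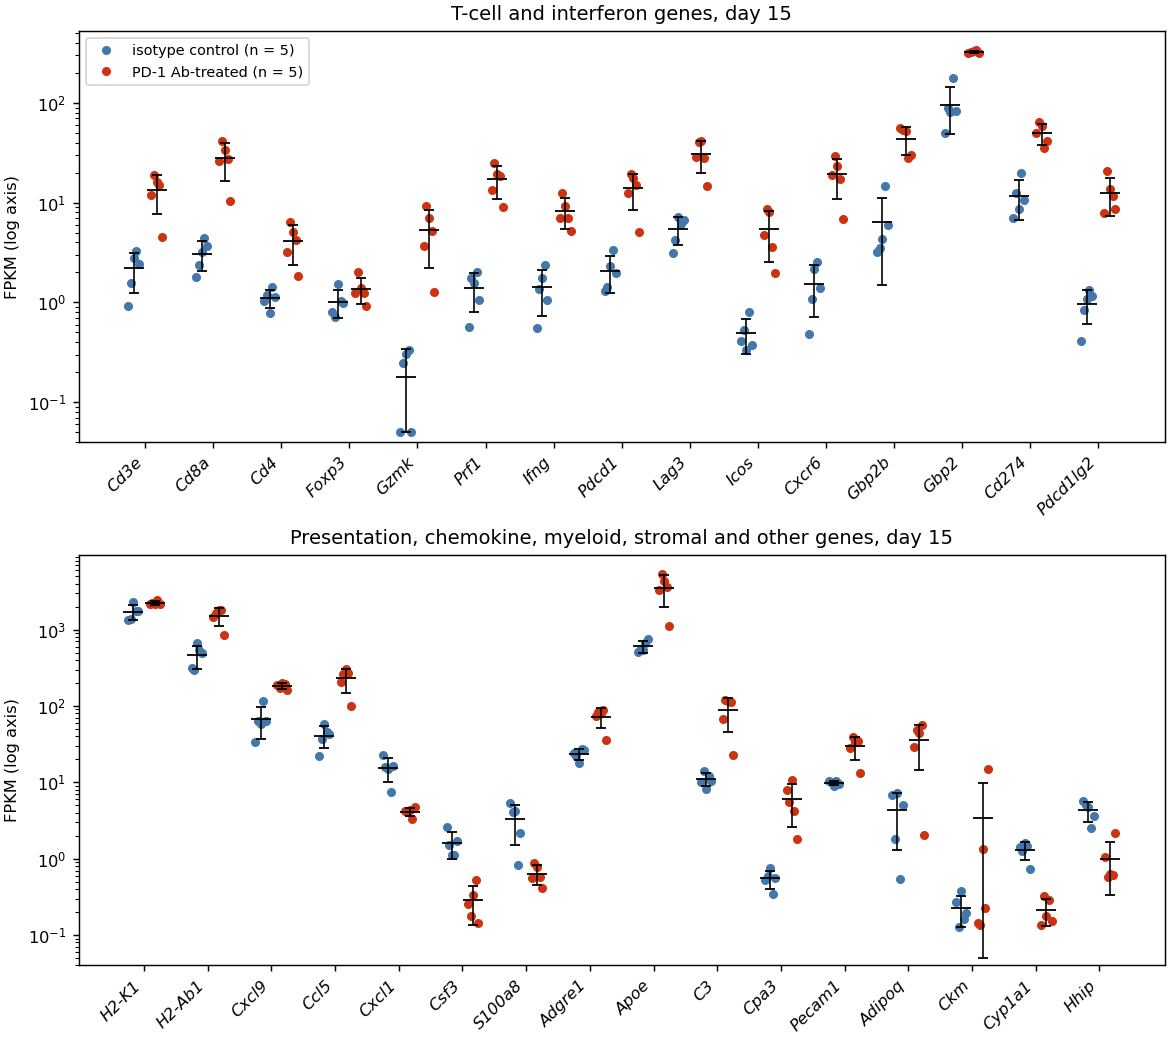
FPKM on a log axis for T-cell, interferon, presentation, chemokine, myeloid and other genes in each isotype (blue) and PD-1 Ab-treated (red) tumor on day 15. Black bars are the mean ± SD of 5 tumors; values and bars that would fall under the axis are drawn at its lower end. Cd8a lies at 1.79 to 4.41 FPKM in isotype and 10.3 to 41.4 in treated tumors without overlap, whereas Foxp3 and H2-K1 overlap, and replicate 5 is the lowest treated point in many immune genes.

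The genes of CD8 T cells and their killing granules rose with the receptor genes. Of 15 tested members 10 were called, with a median of 2.62, and 12 were called without PD-1 Ab-treated replicate 5. Cd8a measured 1.79, 2.37, 3.19, 4.41 and 3.68 FPKM in the isotype tumors and 26.1, 41.4, 34.1, 27.5 and 10.3 FPKM in the PD-1 Ab-treated tumors (3.06 ± 0.35, adjusted p 0.000837). Cd8a is the coreceptor of cytotoxic T cells, at chromosome 6, 71373427 to 71379173 in GRCm38, and every treated tumor lay above every isotype tumor. Prf1 measured 0.57, 1.75, 1.56, 2.04 and 1.05 FPKM in the isotype tumors and 13.3, 25.1, 19.5, 18.5 and 9.05 FPKM in the PD-1 Ab-treated tumors (3.55 ± 0.34, adjusted p 0.000806). Prf1 encodes perforin, the pore-forming protein of the granules, and its groups were apart as well. Gzmk, a granzyme, was at 0 in 2 isotype tumors and at most 0.337 FPKM in the other 3, but at 1.27 to 9.35 FPKM in treated tumors (fitted log2 fold change 4.30, adjusted p 0.00113). Gzmb, the granzyme that starts apoptosis in target cells, rose from 4.93 ± 1.99 to 38.04 ± 9.84 FPKM (adjusted p 0.000837). Gzma, a tryptase named here after its values were seen, measured 1.85 ± 0.579 and 4.7 ± 1.62 FPKM and did not pass the threshold (adjusted p 0.0127).

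Ifng, the gene of the effector cytokine, was among 2 called genes of 6 tested in a list of 16 CD4 helper and cytokine genes, together with Cd4 (1 without PD-1 Ab-treated replicate 3 and 4 without PD-1 Ab-treated replicate 5). Ifng measured 0.554, 1.35, 1.75, 2.4 and 1.06 FPKM in the isotype tumors and 6.99, 12.6, 9.33, 7.1 and 5.16 FPKM in the PD-1 Ab-treated tumors (2.52 ± 0.34, adjusted p 0.00106). The groups were apart by more than the whole isotype range. Cd4 measured 1.03, 1.19, 0.778, 1.41 and 1.13 FPKM in the isotype tumors and 3.18, 6.45, 5.13, 4.2 and 1.84 FPKM in the PD-1 Ab-treated tumors (1.72 ± 0.30, adjusted p 0.0031). Of that list, 2 members were at 0 in all 10 tumors, and most of the interleukin genes were below the filter. Among 7 tested regulatory T-cell genes 3 were called, Ikzf4, Tnfrsf18 and Il2ra, and 1 without PD-1 Ab-treated replicate 3. The lineage-defining factor Foxp3 measured 0.796, 0.719, 1.53, 1.03 and 0.988 FPKM in isotype and 1.26, 2.01, 1.39, 1.25 and 0.928 FPKM in treated tumors, which overlap (0.40 ± 0.26, adjusted p 0.265). Foxp3 was also read at 1.02 FPKM in the cultured line, so its tumor level cannot be assigned to T cells. Tnfrsf18 was read at a mean of 2.4 FPKM in the cultured line, 2.53 in isotype and 7.69 in treated tumors. Its isotype level cannot be assigned to T cells either. Ikzf4 had an isotype mean of 0.119 FPKM and was tested only because its treated mean passed the filter. Which cells held the RNA of Ikzf4, Tnfrsf18 and Il2ra was not determined.

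Among transcription factors of T cells 4 of 17 were called, with a median of 0.47, and 2 were called without isotype replicate 5 or without PD-1 Ab-treated replicate 1, 2 or 3. Tbx21, the T-bet gene of type 1 T cells, rose from 0.549 ± 0.193 to 2.75 ± 0.974 FPKM (2.10 ± 0.32, adjusted p 0.00165). Tox, which accompanies lasting stimulation, rose from 0.321 ± 0.194 to 1.56 ± 0.735 FPKM (adjusted p 0.00509), and Irf4, an activation-induced factor, from 0.319 ± 0.157 to 2.26 ± 1.04 (adjusted p 0.0032). Id2 was the other called factor. Eomes, a relative of T-bet named after its values were seen, measured 1.00 ± 0.137 and 1.15 ± 0.383 FPKM (adjusted p 0.706). Tcf7, the factor of memory and stem-like T cells, likewise named after its values were seen, measured 13.7 to 18.6 FPKM in isotype and 11.7 to 15.7 in treated tumors (log2 fold change -0.20, adjusted p 0.197). Which cells of the tumor held the Tcf7 RNA was not determined, so its level cannot be assigned to T cells.

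Receptors that restrain or support T cells were called in most cases. Of 11 coinhibitory receptors 8 were called higher, with a median of 1.85. Pdcd1 measured 1.3, 1.42, 2.35, 3.36 and 1.95 FPKM in the isotype tumors and 12.6, 19.4, 17.8, 15.0 and 5.1 FPKM in the PD-1 Ab-treated tumors (2.64 ± 0.36, adjusted p 0.00106). Pdcd1 encodes PD-1, the target of the antibody, and its RNA was higher in all 5 treated tumors. Lag3 rose from 5.49 ± 1.74 to 30.8 ± 11.0 FPKM, Tigit from 1.32 ± 0.491 to 9.54 ± 3.8, and Cd96 from 0.266 ± 0.184 to 2.48 ± 1.02. Of 8 tested costimulatory receptors 7 were called, with a median of 2.60, and 4 without isotype replicate 5 or without PD-1 Ab-treated replicate 2 or 3. Icos measured 0.413, 0.528, 0.337, 0.8 and 0.371 FPKM in the isotype tumors and 4.76, 8.72, 8.08, 3.62 and 1.95 FPKM in the PD-1 Ab-treated tumors (3.09 ± 0.38, adjusted p 0.000885). Icos is a costimulator of the CD28 family and had the highest fold change of its list. Cd27 rose from 0.541 ± 0.199 to 5.38 ± 2.78 FPKM. The exception was Tnfrsf9, the gene of 4-1BB, named after its values were seen. It was high in isotype tumors already, at 55.1 to 81.6 FPKM, and measured 40.8 to 64.1 FPKM in treated tumors (log2 fold change -0.27, adjusted p 0.186). The cells that held the Tnfrsf9 RNA were not determined either, so it cannot be assigned to T cells.

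NK and innate-like receptors were called in 5 of 10 tested genes (median 1.55), and in 3 without isotype replicate 5 or without PD-1 Ab-treated replicate 1, 2 or 3. The called members included Klrd1, at 2.37 ± 0.786 and 17.1 ± 5.71 FPKM, and Klrc1, its NKG2A partner, of which 38.6% of the 50-base stretches are shared with other genes, mainly Klrc2. Both receptors occur on activated CD8 T cells as well as on NK cells. Ncr1, which marks NK cells more narrowly, measured 0.27 ± 0.179 and 0.796 ± 0.311 FPKM and was not called (adjusted p 0.042). In the cytokine axes of the common gamma chain, IL-12 and IL-18, 8 of 16 genes were called, with a median of 1.26. Il2rb rose from 4.95 ± 1.84 to 30.5 ± 11.6 FPKM, Il7r from 1.16 ± 0.396 to 8.91 ± 4.05, and Il18bp, a secreted decoy for IL-18, from 15.1 ± 4.93 to 108 ± 32.9. Among adhesion and homing genes 8 of 13 were called (median 1.43), among them the integrin genes Itgal, Itga4 and Itgb7. Icam1, an adhesion gene, was also called, at 6.01 ± 0.594 and 21.5 ± 7.08 FPKM. Only 5 of these 13 were called without isotype replicate 1, 2, 3 or 5 or without PD-1 Ab-treated replicate 1, 2 or 3.

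Ratios within a tumor do not depend on how the samples are scaled. The ratio of Cd8a to Cd4 was 1.67, 1.92, 3.74, 2.98 and 3.06 in isotype and 8.01, 6.34, 6.54, 6.42 and 5.37 in treated tumors, so every treated tumor was higher. The mean difference was 1.34 on the log2 scale (exact permutation test, 2-sided p = 0.0079, the smallest that 252 splits can give, adjusted over 9 ratios 0.0286). The ratio of Cd8a to Foxp3 rose from 2.02 to 3.98 in isotype tumors to 10.1 to 22.9 in treated tumors (difference 2.66, exact p = 0.0079, adjusted 0.0286). Foxp3 itself was not called, so this ratio mainly restates the rise of Cd8a. The cultured line also held 1.02 FPKM of Foxp3, so the ratio is not a measure of regulatory T cells. Relative to Ptprc, the gene of the pan-leukocyte marker CD45, Cd8a was 1.65 higher on the log2 scale (exact p = 0.0159, adjusted 0.0286), while Adgre1, the macrophage marker F4/80, differed by 0.14 (exact p = 0.913). Ptprc itself was low in PD-1 Ab-treated replicate 4, at 20.9 FPKM against 36.4 to 74.2 in the other treated tumors, and it is a long transcript. Per unit of Cd8a the granule genes were not called different, Gzmb at -0.07 (exact p = 0.754) and Prf1 at 0.49 (exact p = 0.111, adjusted 0.143). Ifng per Cd8a was -0.54 (exact p = 0.0556, adjusted 0.0833), and without PD-1 Ab-treated replicate 5 it was -0.71 (exact test, adjusted p 0.0476). Pdcd1 per Cd8a was 0.543 to 0.767 in isotype and 0.470 to 0.546 in treated tumors, lower by the test (difference -0.42, exact p = 0.0159, adjusted 0.0286). Lag3 per Cd8a was also lower, at 1.38 to 2.24 and 0.979 to 1.41 (difference -0.63, exact p = 0.0159, adjusted 0.0286).

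Genes induced by interferon were the other large group, and the GTPases among them did not lag in PD-1 Ab-treated replicate 5. Of 18 interferon-induced GTPases 15 were called higher, with a median of 1.83. The median difference from the isotype mean was 1.89, 1.93, 1.90, 1.35 and 1.82 in the 5 treated tumors, whereas for the T-cell receptor list it was 2.32, 3.18, 2.88, 2.58 and 1.13. These GTPases attack vacuoles that hold pathogens and are strongly induced by IFN-gamma. Gbp2 measured 49.9, 88.4, 82.0, 176 and 82.3 FPKM in the isotype tumors and 314, 322, 329, 337 and 320.2 FPKM in the PD-1 Ab-treated tumors (1.88 ± 0.25, adjusted p 0.00101). The treated values of Gbp2 lie within a narrow band while the isotype values spread over more than 3-fold. Gbp2b measured 3.2, 3.52, 4.31, 14.8 and 5.94 FPKM in the isotype tumors and 55.9, 53.2, 52.0, 28.0 and 30.2 FPKM in the PD-1 Ab-treated tumors (2.95 ± 0.38, adjusted p 0.000969). Gbp2b is its neighbor and had the highest fold change of the list. Gbp10 was called too, but 84.1% of its 50-base stretches are shared with other genes, mainly Gbp6.

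The genes Gbp5, Gbp3, Gbp2b and Gbp2 are 4 of the 5 tested genes in a stretch of chromosome 3, were all called higher and are shown because their promoters carry the letters of these interferon elements. GAS was searched as TTCNNNGAA and ISRE as 2 copies of GAAA with any 2 bases between them, both on either strand, so a capital run may show the reverse complement. Each sequence is the RefSeq promoter in GRCm38.p6, from 250 bases before to 50 after the start of the gene, on the plus strand, with matches in capitals.
Gbp5, chr3:142496684-142496983: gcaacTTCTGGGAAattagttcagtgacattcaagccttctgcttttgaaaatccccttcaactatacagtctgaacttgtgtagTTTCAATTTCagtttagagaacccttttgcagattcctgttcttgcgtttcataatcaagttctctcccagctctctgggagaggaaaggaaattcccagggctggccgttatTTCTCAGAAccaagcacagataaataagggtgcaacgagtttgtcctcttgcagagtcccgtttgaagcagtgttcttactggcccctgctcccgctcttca
Gbp3, chr3:142559794-142560093: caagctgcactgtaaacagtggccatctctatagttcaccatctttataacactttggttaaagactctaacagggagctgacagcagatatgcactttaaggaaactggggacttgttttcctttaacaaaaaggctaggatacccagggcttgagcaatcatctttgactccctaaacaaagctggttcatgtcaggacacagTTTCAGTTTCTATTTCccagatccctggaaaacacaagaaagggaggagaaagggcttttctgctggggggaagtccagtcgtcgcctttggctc
Gbp2b, chr3:142594597-142594896: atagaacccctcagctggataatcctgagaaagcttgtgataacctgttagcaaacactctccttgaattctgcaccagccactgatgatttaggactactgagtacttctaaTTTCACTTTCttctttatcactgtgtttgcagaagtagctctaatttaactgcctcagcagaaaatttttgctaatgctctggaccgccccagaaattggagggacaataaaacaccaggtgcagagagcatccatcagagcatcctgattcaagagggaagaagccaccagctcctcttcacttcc
Gbp2, chr3:142620413-142620712: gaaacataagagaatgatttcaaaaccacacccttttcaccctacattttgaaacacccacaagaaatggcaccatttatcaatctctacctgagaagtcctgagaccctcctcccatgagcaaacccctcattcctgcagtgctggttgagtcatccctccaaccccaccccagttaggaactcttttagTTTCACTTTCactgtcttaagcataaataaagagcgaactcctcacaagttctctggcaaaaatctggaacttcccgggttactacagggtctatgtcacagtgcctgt
The Gbp5 promoter held GAS matches that begin 245 and 52 bases before the start and an ISRE match 165 bases before it. In Gbp3 a pair of overlapping ISRE matches begins 45 and 39 bases before the start, and a further annotated Gbp3 start (chr3:142560106-142560405) had no match. Single ISRE matches begin 137 bases before the start in Gbp2b and 59 in Gbp2. Of 27025 gene symbols with a promoter 9.55% held a GAS and 3.99% an ISRE match in at least 1 of their promoters. Among the 554 called higher genes with a promoter in the table the shares were 12.1% and 10.5%, beside 8.38% and 4.03% of the 10797 tested genes with one. Among 11 GTPases with a promoter, 10 (90.9%) held an ISRE and 6 (54.5%) a GAS match. Of the 26 called lower genes with a promoter none held a GAS match and 1 (3.85%) an ISRE match. A match describes letters, not a bound site.

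In the IFN-gamma signaling list 5 of 13 genes were called at 2-fold and 8 with no fold limit (median 0.72). Cd274 measured 7.02, 12.6, 8.58, 20.1 and 10.6 FPKM in the isotype tumors and 49.9, 64.8, 58.2, 35.7 and 41.4 FPKM in the PD-1 Ab-treated tumors (2.14 ± 0.26, adjusted p 0.000885). Cd274 encodes PD-L1, and Pdcd1lg2, which encodes PD-L2, had the larger fold change of the ligands, from 0.967 ± 0.362 to 12.6 ± 5.27 FPKM (3.56 ± 0.32, adjusted p 0.000806). Ido1, which degrades tryptophan, rose from 2.43 ± 1.52 to 11.2 ± 2.35 FPKM. Genes known mainly for type I interferon were called higher in 2 of 19 cases, Oas3 and Ifit3, beside 5.03% of all tested genes. The list had a median of 0.80. Isg15 measured 43.4 to 110.1 FPKM in isotype and 92.4 to 115 in treated tumors (adjusted p 0.102). 51.2% of the 50-base stretches of Ifit3 are shared with other genes, mainly Ifit3b. Without PD-1 Ab-treated replicate 5, 6 genes of this list were called, and without isotype replicate 1 or 5 or PD-1 Ab-treated replicate 1, 2 or 3 it was 1.

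Of 17 genes of class I presentation and the immunoproteasome only Nlrc5, the transactivator of class I genes, was called (1.27 ± 0.17, adjusted p 0.00101). The share called higher over all tested genes was 5.03%, and the list had a median of 0.39. H2-K1 measured 1332, 1385, 2279, 1759 and 1745 FPKM in the isotype tumors and 2145, 2223, 2176, 2449.6 and 2142 FPKM in the PD-1 Ab-treated tumors, so the groups overlapped (0.42 ± 0.15, adjusted p 0.0656). H2-K1 encodes a classical class I molecule and, like its light chain B2m, was already among the most abundant transcripts of isotype tumors. B2m, named after its values were seen, measured 2790.1 ± 336 and 3696 ± 346 FPKM (adjusted p 0.0439). Among 9 nonclassical class I genes 3 were called, H2-T23, H2-M2 and H2-T24. H2-T23 gives Qa-1, the ligand of the NKG2A receptor, and rose from 83.0 ± 23.2 to 234 ± 42.8 FPKM. None of 14 constitutive proteasome subunits was called in either direction (median -0.27). Of 11 class II genes 8 were called higher, with a median of 1.67, and 5 without PD-1 Ab-treated replicate 3. H2-Ab1 measured 310.4, 298, 659.9, 543 and 499.6 FPKM in the isotype tumors and 1476, 1670.4, 1782, 1820.2 and 842 FPKM in the PD-1 Ab-treated tumors (1.73 ± 0.27, adjusted p 0.00169). H2-Ab1 presents peptides to CD4 T cells, and replicate 5 had the lowest treated value. Its transactivator Ciita rose from 4.16 ± 1.88 to 18.7 ± 4.86 FPKM (adjusted p 0.00136). The MC-38 cultures held 0.321 FPKM of H2-Ab1 and 186 of H2-K1.

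**Figure D3:**
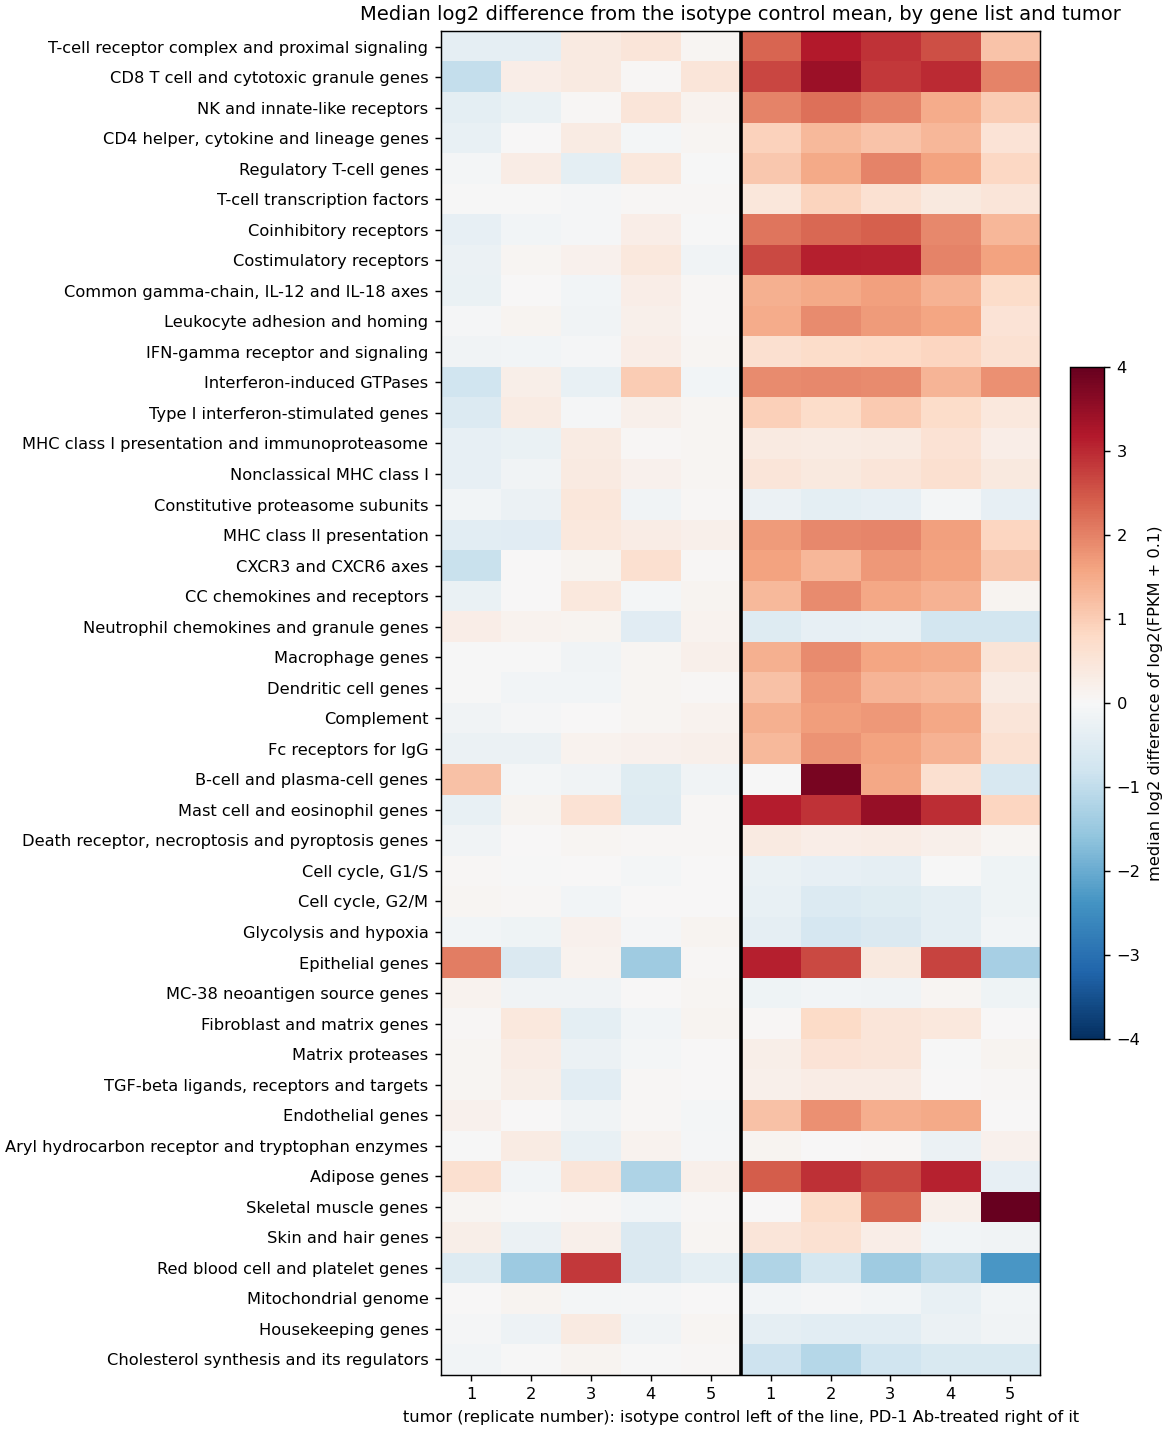
Median log2 difference from the isotype mean (FPKM + 0.1, color scale from -4 to 4) for each gene list (rows) in each tumor (columns), isotype left and PD-1 Ab-treated right of the line. The row of the T-cell receptor complex is at 2.32 to 3.18 in treated replicates 1 to 4 and at 1.13 in replicate 5, the GTPase row is even (1.35 to 1.93), adipose genes are high in 4 tumors, muscle genes in replicate 5 (5.47), and cholesterol genes are lower in all 5.

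Of 6 genes of the CXCR3 and CXCR6 axes, which bring T cells into tissue, 5 were called at 2-fold and all 6 with no fold limit (median 1.49). At 2-fold it was 3 without isotype replicate 2 or without PD-1 Ab-treated replicate 1, 2 or 4, and 2 without PD-1 Ab-treated replicate 3. Cxcl9 measured 33.6, 64.0, 57.5, 116 and 62.9 FPKM in the isotype tumors and 185, 173, 199.8, 194 and 163 FPKM in the PD-1 Ab-treated tumors (1.56 ± 0.25, adjusted p 0.00185). Cxcl9 attracts CXCR3-bearing T cells and was even across treated tumors. Cxcr6, a receptor of tissue-resident T cells, rose from 1.53 ± 0.819 to 19.3 ± 8.45 FPKM (3.60 ± 0.44, adjusted p 0.000885), and Cxcr3 from 0.346 ± 0.196 to 3.31 ± 1.59. In the CC family 5 of 14 genes were called higher. Ccl5 measured 21.9, 36.9, 57.2, 45.5 and 43.1 FPKM in the isotype tumors and 206, 260.1, 306, 272 and 101 FPKM in the PD-1 Ab-treated tumors (2.45 ± 0.31, adjusted p 0.000967). Ccl5, which T cells themselves secrete, was followed by Ccl3 and Ccl4 with log2 fold changes of 2.33 and 2.24. Ccl2, the main monocyte attractant, was named after its values were seen and went the other way. Ccl2 measured 54.5, 71.8, 83.3, 54.7 and 72.9 FPKM in the isotype tumors and 46.6, 43.5, 48.2, 40.2 and 46.9 FPKM in the PD-1 Ab-treated tumors, lower with no fold limit (-0.56 ± 0.13, adjusted p 0.00962).

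Of 12 tested genes of neutrophil attraction and granules (median -0.16), 3 were called lower, Csf3, S100a8 and Cxcl1, and 1 higher, Csf3r. Csf3 measured 2.6, 1.52, 1.1, 1.13 and 1.7 FPKM in the isotype tumors and 0.254, 0.18, 0.332, 0.527 and 0.142 FPKM in the PD-1 Ab-treated tumors (-2.16 ± 0.33, adjusted p 0.00172). Csf3 encodes G-CSF, the growth factor of neutrophils. The Csf3 call held in 19 of 22 alternative settings, with log2 fold changes of -2.38 to -0.999. Cxcl1 measured 22.8, 15.7, 15.0, 7.49 and 16.3 FPKM in the isotype tumors and 4.16, 4.05, 4.36, 3.29 and 4.73 FPKM in the PD-1 Ab-treated tumors (-1.81 ± 0.24, adjusted p 0.00106). Cxcl1 attracts neutrophils, and no treated tumor reached the lowest isotype value. S100a8, a calcium-binding protein of neutrophils, measured 0.821 to 5.33 FPKM in isotype and 0.414 to 0.871 in treated tumors (-2.004 ± 0.43, adjusted p 0.00836), and kept its call in 6 of 22 alternative settings. Cxcl2, a relative of Cxcl1, was not called (log2 fold change -1.24, adjusted p 0.0341). Csf3r, the G-CSF receptor, which monocytes also carry, rose from 3.7 ± 0.78 to 15.6 ± 5.5 FPKM.

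Macrophage genes were called in 10 of 17 cases (median 1.38). Adgre1 measured 24.0, 22.4, 17.8, 27.5 and 26.5 FPKM in the isotype tumors and 73.3, 83.1, 81.6, 89.7 and 35.4 FPKM in the PD-1 Ab-treated tumors (1.56 ± 0.23, adjusted p 0.00147). Adgre1 is the marker F4/80, and all 5 treated tumors lay above the isotype range. Apoe measured 507, 546, 535, 665 and 759 FPKM in the isotype tumors and 3326, 5335, 4355, 3614 and 1099.7 FPKM in the PD-1 Ab-treated tumors (2.40 ± 0.35, adjusted p 0.00136). Apoe carries cholesterol out of macrophages and was among the most abundant transcripts that changed. Arg1 and Nos2, enzymes that divide arginine between them, both rose, Arg1 from 11.7 ± 4.29 to 48.3 ± 25.8 FPKM and Nos2, named after its values were seen, from 10.9 ± 3.53 to 30.6 ± 7.28 FPKM (adjusted p 0.00315 and 0.0014). Chil3, also named after its values were seen, measured 1.73 ± 0.995 and 0.543 ± 0.479 FPKM (adjusted p 0.0532). Of 15 dendritic cell genes 6 were called, among them Xcr1 and Clec9a, which mark the cross-presenting type, and 13 were called without PD-1 Ab-treated replicate 5. Complement genes were called in 10 of 13 cases (median 1.40), and in 5 without PD-1 Ab-treated replicate 3. C3 measured 10.2, 14.0, 8.27, 12.2 and 10.4 FPKM in the isotype tumors and 67.5, 118, 115, 112 and 22.95 FPKM in the PD-1 Ab-treated tumors (2.78 ± 0.39, adjusted p 0.00123). C3 is the central component of the cascade, and the lowest treated value was again replicate 5. All 6 Fc receptor genes for IgG were called, with a median of 1.32 and Fcgr4 highest, at 36.7 ± 13.5 and 173 ± 44.6 FPKM.

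Of 5 tested members of the mast cell and eosinophil list 4 were called (median 2.71). In 3 of the 5 every treated tumor was above every isotype tumor, beside 9.23% of all tested genes. The count was 2 in 8 of the 10 fits with 1 tumor left out, 4 without isotype replicate 3 and 5 without PD-1 Ab-treated replicate 5. One of the 7 listed genes was at 0 in all 10 tumors. Cpa3 measured 0.519, 0.591, 0.754, 0.344 and 0.553 FPKM in the isotype tumors and 7.86, 5.49, 10.7, 4.24 and 1.8 FPKM in the PD-1 Ab-treated tumors (3.04 ± 0.40, adjusted p 0.00101). Cpa3, a mast cell carboxypeptidase, Tpsb2, a tryptase, and Cma1, a chymase, are stored together in mast cell granules. Tpsb2 rose from 1.53 ± 0.468 to 13.8 ± 6.73 FPKM and Cma1 from 0.89 ± 0.443 to 7.00 ± 3.37. In Cma1 PD-1 Ab-treated replicate 5 lay within the isotype range, and the gene kept its call in 10 of 22 alternative settings. B-cell and plasma-cell genes varied from tumor to tumor, and none of 9 was called (1 without PD-1 Ab-treated replicate 5). Cd79a, a chain of the B-cell receptor, measured 0.411 to 1.66 FPKM in isotype and 0.138 to 6.1 in treated tumors. Igkc, the kappa light chain, named after its values were seen, measured 19.3, 3.54, 10.3, 6.94 and 7.23 FPKM in isotype and 6.07, 184, 54.7, 18.9 and 5.29 FPKM in treated tumors (adjusted p 0.222). The highest value of both was in PD-1 Ab-treated replicate 2.

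Genes of vessels, fibroblasts and tissue next to the tumor varied widely among the treated tumors. Of 12 endothelial genes 2 were called, Pecam1 and Eng, and 10 were called without PD-1 Ab-treated replicate 5, where the list's median was 0.02 above the isotype mean against 1.16 to 1.84 in the other treated tumors. Without any 1 of the other tumors except isotype replicate 4, it was 1. Pecam1 measured 10.4, 10.0, 8.95, 10.4 and 9.37 FPKM in the isotype tumors and 28.0, 39.5, 33.4, 34.3 and 13.3 FPKM in the PD-1 Ab-treated tumors (1.496 ± 0.24, adjusted p 0.00222). Of 17 fibroblast and matrix genes 3 were called, Thy1, Tagln and Acta2, with a median of 0.28, and Col1a1 was not (446 ± 113 and 678 ± 205 FPKM, adjusted p 0.0741). Thy1 is also a T-cell marker in mice. None of the 17 was called without isotype replicate 5 or PD-1 Ab-treated replicate 1, 2 or 3, 1 without any other isotype tumor or PD-1 Ab-treated replicate 4, and 5 without PD-1 Ab-treated replicate 5. One of 13 matrix protease genes was called higher, the inhibitor Timp3, beside 5.03% of all tested genes. None of 10 genes of the TGF-beta pathway was called, where Tgfb1 measured 42.0 to 59.7 and 51.1 to 70.5 FPKM. Without PD-1 Ab-treated replicate 5, 2 genes of the TGF-beta list were called higher and 1 protease gene lower. Of the protease genes 2 were called higher without PD-1 Ab-treated replicate 4, none without isotype replicate 3 or 5 or PD-1 Ab-treated replicate 1, 2 or 3, and 2 were lower without isotype replicate 4. Of 15 adipose genes 4 were called, and 12 without PD-1 Ab-treated replicate 5. The count was 2 without isotype replicate 3, 0 without PD-1 Ab-treated replicate 3 and 1 without any other tumor. The summed FPKM of the adipose list was 249.7 to 380.0 in isotype tumors, 923 to 1509 in treated replicates 1 to 4 and 242 in replicate 5. Adipoq, the fat-cell hormone adiponectin, measured 29.2, 48.5, 43.9, 55.7 and 2.02 FPKM in the treated tumors and 0.541 to 7.25 in isotype tumors (adjusted p 0.0398). Of 14 tested skeletal muscle genes 2 were called higher, Acta1 and Myl1, beside 5.03% of all tested genes. The list summed to 11.7 to 15.4 FPKM in isotype tumors, 16.1 to 27.9 in treated replicates 1 to 4 and 129.9 in replicate 5. No muscle gene was called without any 1 of the isotype tumors or without PD-1 Ab-treated replicate 2 or 3, and 1 without PD-1 Ab-treated replicate 1. None of 4 skin genes was called, and of 6 red cell and platelet genes 1, Pf4, was higher, but none without isotype replicate 2 or 4 or without PD-1 Ab-treated replicate 1, 2, 3 or 4. Hbb-bs, a globin, was 465 FPKM in isotype replicate 3 and 26.4 to 50.6 in the other isotype tumors. The part of attached tissue in the genes that follow these lists was not tested.

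The largest fold changes belonged partly to these tissue genes. Among called genes of at least 1 FPKM in either group the 9 highest were Mup18, Thrsp, Gzmk, Mup16, Acta1, Apol7c, Cxcr6, Pdcd1lg2 and Prf1. Thrsp, a regulator of fat synthesis, measured 23.6, 90.8, 47.2, 56.6 and 2.19 FPKM in the treated tumors against 0.156 to 4.09 in isotype tumors (adjusted p 0.00801). Mup18 and Mup16 encode major urinary proteins, and 89.6% and 91.7% of their 50-base stretches occur in other genes, so their values are uncertain. Mup18 was at 18.9, 33.5, 20.8, 32.2 and 0.743 FPKM in the treated tumors. In PD-1 Ab-treated replicate 5, Mup18, Mup16 and Thrsp lay within the isotype range, while Acta1 was highest there (0.558, 1.05, 3.63, 1.22 and 20.3 FPKM). Apol7c, which dendritic cells express, rose from 0.501 ± 0.166 to 8.82 ± 5.99 FPKM and held its call in all 22 alternative settings, as did Gzmk, Cxcr6, Pdcd1lg2 and Prf1. Thrsp, Mup18 and Acta1 each held it in 11. Over these settings the log2 fold change was 2.26 to 5.11 for Gzmk, 1.81 to 4.67 for Acta1 and 2.88 to 4.03 for Prf1. The order of the highest genes therefore depends on the setting.

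Fewer genes were lower. Among called genes that reached 1 FPKM in isotype or treated tumors, the 10 lowest were Gm15387, Gm10580, Csf3, Cyp1a1, Hhip, Gm38226, S100a8, Myhas, Cxcl1 and Cdh15. Cyp1a1 measured 1.44, 1.24, 1.61, 1.49 and 0.735 FPKM in the isotype tumors and 0.137, 0.323, 0.179, 0.284 and 0.153 FPKM in the PD-1 Ab-treated tumors (-2.15 ± 0.30, adjusted p 0.00117). Its treated values lay near the 0.1 FPKM that was added. Over 22 alternative settings its log2 fold change was -2.32 to -0.91, and the call held in 21. Cyp1a1 is the classical target of the aryl hydrocarbon receptor, whose own gene Ahr measured 2.18 to 5.01 and 2.99 to 4.53 FPKM. In that list of 6 tested genes Kynu, an enzyme that breaks down kynurenine, was the gene called higher (0.53 ± 0.223 and 2.06 ± 0.62 FPKM), and 2 were without PD-1 Ab-treated replicate 5. Hhip measured 5.67, 5.02, 4.79, 2.51 and 3.62 FPKM in the isotype tumors and 1.04, 0.578, 0.64, 0.616 and 2.15 FPKM in the PD-1 Ab-treated tumors (-2.11 ± 0.35, adjusted p 0.00228). Hhip, a membrane antagonist of hedgehog ligands, was expressed by cultured MC-38 cells at 6.03 FPKM. The predicted genes Gm15387, Gm10580 and Gm38226 share 88.8% to 100% of their 50-base stretches with other genes and are uncertain.

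A coherent set among the lower genes was cholesterol synthesis, which was listed after values were seen, so its counts are a description. Cells make cholesterol from acetyl-CoA through mevalonate, farnesyl diphosphate and squalene, and the factor SREBP2 induces the enzymes of the pathway when sterols are low. Of 21 genes, 5 were called lower at 2-fold, Idi1, Fdps, Sqle, Cyp51 and Msmo1, and 17 were lower with no fold limit. Over all tested genes these shares were 0.272% and 1.56%. In 17 of the 21 every treated tumor was below every isotype tumor, beside 6.12% of all tested genes. The median log2 fold change was -0.77, and -0.84 after upper-quartile scaling. Sqle measured 63.5, 65.4, 65.6, 63.4 and 65.5 FPKM in the isotype tumors and 30.6, 20.5, 29.5, 31.3 and 43.3 FPKM in the PD-1 Ab-treated tumors (-1.10 ± 0.15, adjusted p 0.00122). Sqle, squalene epoxidase, was nearly constant among isotype tumors (64.7 ± 1.09 FPKM). Fdps measured 200.3, 192, 331, 218 and 257 FPKM in the isotype tumors and 99.9, 67.4, 104, 130.2 and 134 FPKM in the PD-1 Ab-treated tumors (-1.17 ± 0.20, adjusted p 0.00267). Fdps makes farnesyl diphosphate, and the same treated tumor, replicate 2, was lowest in both genes. Msmo1 measured 79.7, 80.7, 137, 88.1 and 97.9 FPKM in the isotype tumors and 38.8, 25.4, 39.7, 37.7 and 55.5 FPKM in the PD-1 Ab-treated tumors (-1.30 ± 0.20, adjusted p 0.00167). Msmo1, a sterol demethylase, had the largest decrease of the list. Hmgcs1, which makes HMG-CoA, fell from 98.0 ± 7.64 to 50.2 ± 12.6 FPKM (log2 fold change -0.998), which passed with no fold limit. Srebf2, the gene of SREBP2, fell from 52.9 ± 2.58 to 33.0 ± 5.91 FPKM (log2 fold change -0.70, adjusted p 0.00317). Ebp, an isomerase late in the pathway, was at 0.01 (adjusted p 0.968). The 21 genes summed to 862 to 1136 FPKM in isotype and 363 to 611 in treated tumors, and all but Tm7sf2 exceeded 10 FPKM in the MC-38 cultures. The set was as low without isotype replicate 3 and PD-1 Ab-treated replicate 5, with 6 called lower and a median of -0.78. Without PD-1 Ab-treated replicate 2 only 2 were called lower at 2-fold.

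**Figure D4:**
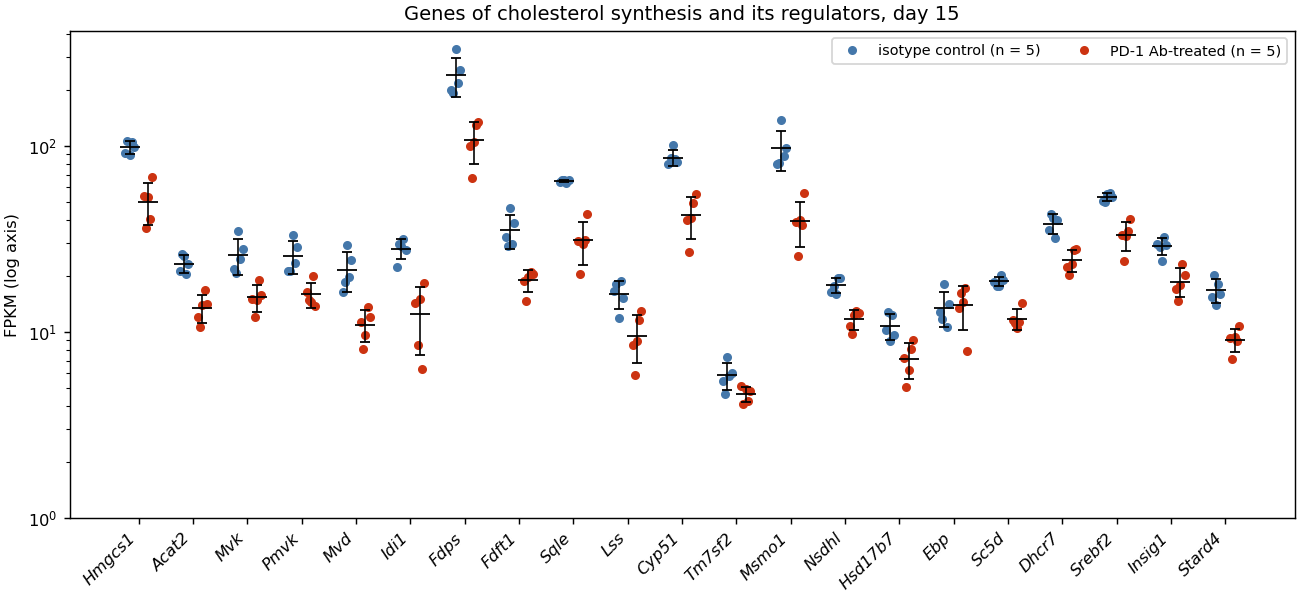
FPKM on a log axis of 21 genes of cholesterol synthesis and its regulators in isotype (blue) and PD-1 Ab-treated (red) tumors on day 15, with the mean ± SD of 5 tumors in black. Treated points lie under every isotype point in 17 of the 21 genes, beside 6.12% of all tested genes. Ebp, Tm7sf2, Lss and Hsd17b7 overlap.

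Few genes of proliferation and glycolysis passed the test. None of 14 G1/S genes was called in any way (median -0.23). Of 19 G2/M genes 4 were lower with no fold limit (median -0.43), and none reached 2-fold. Mki67, the proliferation antigen, measured 33.4, 41.9, 16.6, 37.1 and 23.5 FPKM in isotype and 31.5, 24.8, 23.3, 7.3 and 36.6 FPKM in treated tumors, which overlap (adjusted p 0.47). Its lowest values within each group were in isotype replicates 3 and 5 and PD-1 Ab-treated replicate 4, whose long transcripts were lower. The part of transcript length in this spread was not tested. Of 15 glycolysis and hypoxia genes 2 were lower with no fold limit (median -0.42), Slc2a1 and Ndrg1. Slc2a1 measured 236, 225, 321, 233 and 272 FPKM in the isotype tumors and 149, 121, 135, 131 and 223 FPKM in the PD-1 Ab-treated tumors (-0.78 ± 0.16, adjusted p 0.00724). Slc2a1 encodes the glucose transporter GLUT1, and replicate 5 was the treated tumor nearest the isotype values. Ndrg1, a hypoxia-responsive gene named after its values were seen, fell from 199 ± 22.7 to 113 ± 24.3 FPKM (adjusted p 0.00241). The housekeeping list had a median of -0.37 and no call, while Actb was at -0.02, a value that turns positive under scaling to a fixed sum. The 13 mitochondrial genes had no call (median -0.15). Among 15 genes of death receptors, necroptosis and pyroptosis 2 were called higher, beside 5.03% of all tested genes, and 1 without isotype replicate 1. The 2 were Tnfsf10, the TRAIL gene, at 1.83 ± 0.717 and 6.61 ± 1.63 FPKM, and Zbp1, a sensor of Z-form nucleic acids, at 85.3 ± 24.3 and 185 ± 21.9. Fas measured 9.94 to 13.2 and 10.1 to 13.4 FPKM (adjusted p 0.882). Of 6 tested epithelial genes none was called, and the list summed to 2.45 to 27.6 FPKM in isotype and 2.95 to 52.9 in treated tumors. Epcam, the epithelial surface marker, was at 0.215 FPKM in the MC-38 cultures, so this defining marker was close to absent from the line. None of the 3 genes that give known MC-38 neoantigens was called, and Adpgk measured 17.2 to 21.4 and 17.7 to 21.6 FPKM.

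Genes were also grouped by their level in cultured MC-38 cells, which hold no leukocytes. Of 1448 tested genes under 0.1 FPKM in the cultures 447 were called higher (30.9%) and 5 lower. The 447 make up 59.0% of all higher calls, and the median log2 fold change of the class was 1.36. Genes low in isotype tumors were tested only if their treated mean passed the filter. Those low in treated tumors were tested only if their isotype mean did. How far this selection raised the share and the median of the class was not tested. From 0.1 to 1 FPKM 176 of 1492 genes were called higher and 12 lower (median 0.39), and from 1 to 10 FPKM 113 of 5006 higher and 8 lower (median 0.01). Of 7116 genes at 10 FPKM or more 22 were called higher (0.309%) and 16 lower, with a median of -0.16. With no fold limit that last class held 187 of the 235 lower genes (79.6%) and 96 of the 1008 higher genes (9.52%). FPKM is relative within a sample, so a larger share of leukocyte RNA and a fall of RNA in cancer cells cannot be told apart in these values.

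**Figure D5:**
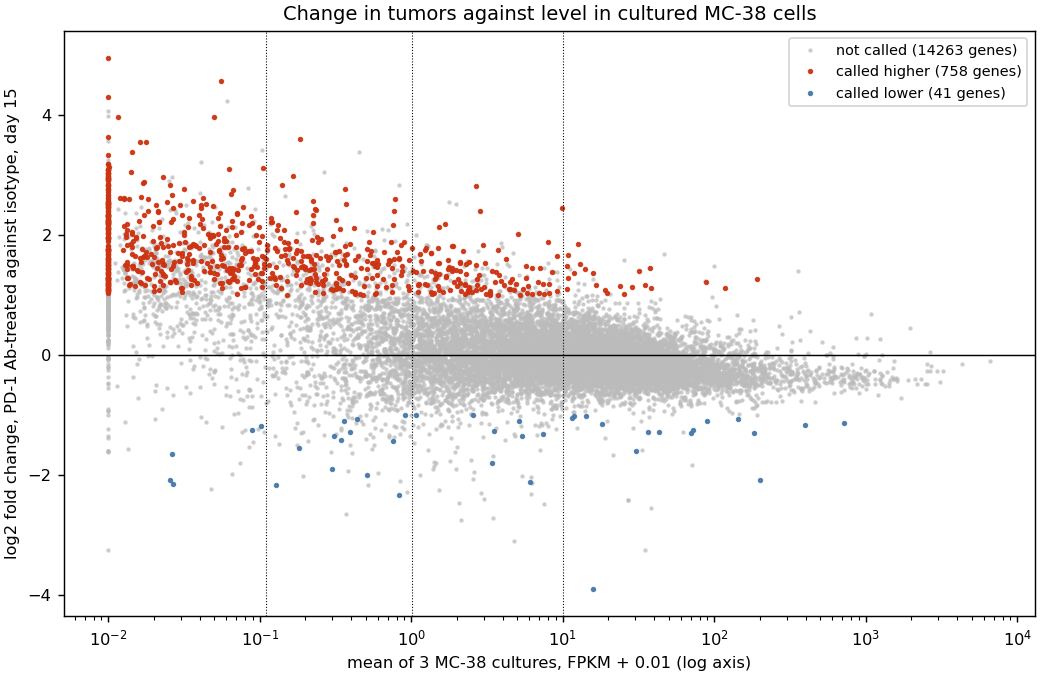
Each point is a tested gene, with its mean FPKM in 3 MC-38 cultures (log axis, 0.01 added) against its log2 fold change in PD-1 Ab-treated tumors on day 15. Dotted lines part the classes at 0.1, 1 and 10 FPKM. Called higher genes (758, red) crowd at the left, and the cloud sinks below 0 at the right, where the class median is -0.16. Genes low in both groups did not pass the filter and are not shown.

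Some called genes lay close together in the genome, which is described here without a test or an expected number of blocks. Runs of at least 4 called higher genes, with at most 2 tested genes between neighbors, formed 16 blocks, and no such block was found among the lower genes. The longest, on chromosome 9 from 44969572 to 45410278 (GRCm38), held 8 of 9 tested genes, Cd3g, Cd3d, Cd3e, Mpzl3, Jaml, Il10ra, Fxyd6 and Fxyd2. Others were the Cd300 family on chromosome 11, the Ms4a family on chromosome 19, the Klr receptors on chromosome 6 and the Gimap family, also on chromosome 6. Class II genes on chromosome 17, Slam family receptors on chromosome 1, Ccl3, Ccl4 and Ccl5 on chromosome 11 and guanylate-binding proteins on chromosomes 3 and 5 formed further blocks. Many are families of immune receptors or interferon-induced genes that arose by duplication, and reads that fit several members could be split between them.

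Whether the effect on day 15 differed from that on day 11 was tested in 1 fit over 20 tumors and 15289 genes. None passed an adjusted p of 0.01 (0.0% called, smallest adjusted p 0.623), and 1182 genes had an unadjusted p under 0.05. One isotype tumor of day 11, replicate 1, had 54.6% of its FPKM in mitochondrial genes, and without it no gene was called and 2802 had an unadjusted p under 0.05. On day 11 alone limma called 0 of 14556 genes, with 895 at an unadjusted p under 0.05, and without that tumor it called 7. With array weights, which let the fit give tumors unequal weight, 1048 genes passed the test of the difference, and with no filter 1. Values of both days are therefore given side by side. Gzmb was at 8.65 ± 4.54 and 32.5 ± 5.11 FPKM in isotype and treated tumors on day 11, a log2 fold change of 2.09 against 2.995 on day 15 (difference 0.91 ± 0.52, SE). Without the mitochondria-rich tumor the day 11 value of Gzmb was 1.83, that of Gbp2 1.33, of Apoe 0.19, of Cyp1a1 -0.15 and of Msmo1 -0.46. Gbp2 had 1.496 and 1.88 (difference 0.39 ± 0.40). Apoe was at 336 ± 177 and 463 ± 113 FPKM on day 11, and its difference between days was 1.66 ± 0.65. Cyp1a1 had log2 fold changes of -0.15 and -2.15 (difference -2.002 ± 0.61), and Msmo1 -0.35 and -1.30 (difference -0.96 ± 0.29). By list, the median log2 fold changes on day 11 and day 15 were 1.39 and 2.46 for the T-cell receptor complex, 1.34 and 1.83 for the GTPases, 0.99 and 1.67 for class II and 0.83 and 1.38 for macrophage genes. For adipose genes they were 0.76 and 1.99 and for cholesterol genes -0.17 and -0.77. Over all genes they were 0.26 and -0.04, and without the mitochondria-rich tumor the day 11 value was -0.04. Without it the day 11 medians were 1.29 for the T-cell receptor complex, 1.16 for the GTPases, 0.64 for class II, 0.48 for macrophage, 0.33 for adipose and -0.44 for cholesterol genes.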

How the data were processed

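RNA of whole MC-38 tumors was read by RNA-seq, and group and replicate number were taken from the sample labels, which give each sample as a tumor and name no batch or mouse. The p-values therefore measure the spread between these tumors. The authors made stranded total RNA libraries with ribosomal depletion, aligned 50-base paired ends to the mouse build B38 with the Omicsoft aligner and quantified Ensembl genes, and deposited FPKM without pooling replicates. The authors' counts were not analysed here, so limma on log2 values took the place of a count test. FPKM does not keep depth, and precision is the spread between tumors. Of 48795 gene identifiers 99.3% were in the GRCm38 annotation used for symbols and positions. Values were kept as deposited, 0.1 FPKM was added before the log2, and genes whose mean reached 0.5 FPKM in 1 of the groups compared entered limma 3.58.1 in R 4.3.3 (lmFit, eBayes with a trend, Benjamini-Hochberg adjustment).

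2-sided exact permutation tests over 252 splits compared 9 ratios. The code was tested on simulated data first. Genes named were the 10 highest and 10 lowest called genes that reached a mean of 1 FPKM, the first gene and up to 3 called members of each list, the genes of the ratios and members of the blocks. Genes given as named after their values were seen are exceptions, as is the cholesterol list. Some genes are not reported here, and were left out of the cholesterol list. Genes listed only with a call or a count come from the same lists. The comparison and the lists were chosen with earlier results of these data known, and lists are described by counts and medians with no test. In the lists, Cd244 and Ctgf were matched as Cd244a and Ccn2. Sharing of sequence was counted over the 50-base stretches of each gene's transcripts. Promoters came from RefSeq (GRCm38.p6), matched by symbol for 10797 tested genes. Alternatives were 1 FPKM added, a filter at 1 FPKM or none, 3 other scalings, eBayes without a trend, array weights, all 4 antibody groups in 1 fit, the replicate number as a block and each tumor left out. Adjustment for transcript length and leaving out isotype replicate 3 with PD-1 Ab-treated replicate 5 were added after seeing the data. The replicate number did not pair the tumors: correlations of the deviations of tumors with the same number were -0.17 to 0.03. Python 3.11.15, numpy 2.4.6, pandas 2.3.3, scipy 1.17.1 and matplotlib 3.10.9 were used.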

Additional observations from a re-analysis of the deposited data

Results flagged for a closer look

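A tumor was singled out when its gap to the nearest other tumor of its group was more than 0.71 of the whole range of the group. Among 146 named genes in both groups (292 groups of 5) this happened 30 times. The rule singles out about 1 in 20 groups of independent, normally distributed values. These genes share the same tumors and many were named for large changes, so the 30 cannot be set against that rate. Of the 30, 22 were PD-1 Ab-treated replicate 5 as the lowest of its group. Among T and NK cell genes, it held Cd3g at 8.65 FPKM against 24.6 to 35.3, Gzmb at 20.9 FPKM against 39.5 to 45.6, Cxcr3 at 0.755 FPKM against 2.8 to 4.6 and Il18bp at 52.5 FPKM against 103 to 135. Among class II genes, it held H2-Ab1 at 842 FPKM against 1476 to 1820, H2-Aa at 958 FPKM against 1786 to 2139 and H2-Eb1 at 898 FPKM against 1580 to 1926. Among myeloid, complement and Fc receptor genes, it held Csf3r at 6.62 FPKM against 15.7 to 20.4, Adgre1 at 35.5 FPKM against 73.3 to 89.7, C1qa at 492 FPKM against 838 to 990, C4b at 16.1 FPKM against 47.4 to 70.1, Fcgr1 at 24.7 FPKM against 42.7 to 51.0 and Fcgr4 at 95.5 FPKM against 178 to 207. Among mast cell, vessel and matrix genes, it held Cma1 at 1.22 FPKM against 7.17 to 9.78, Eng at 13.7 FPKM against 25.9 to 32.8 and Timp3 at 6.32 FPKM against 20.1 to 32.0. Among genes of fat and of the major urinary proteins, it held Adipoq at 2.02 FPKM against 29.2 to 55.7, Plin1 at 1.65 FPKM against 13.4 to 23.01, Pparg at 1.41 FPKM against 4.11 to 6.04, Mup11 at 0.149 FPKM against 1.44 to 2.75, Mup16 at 0.339 FPKM against 6.06 to 8.91 and Mup18 at 0.743 FPKM against 18.9 to 33.5. The other 8 were spread over 6 tumors. Gm15387 was highest in PD-1 Ab-treated replicate 2 (0.906 FPKM, with the other 4 at or near 0). H2-K1 was highest in PD-1 Ab-treated replicate 4 (2450 FPKM against 2142 to 2223). Mki67 was lowest in PD-1 Ab-treated replicate 4 (7.3 FPKM against 23.4 to 36.6), a tumor whose long transcripts were lower. Hbb-bs was highest in isotype replicate 3 (465 FPKM against 26.4 to 50.6). Tnfrsf9 was lowest in PD-1 Ab-treated replicate 3 (40.8 FPKM against 56.3 to 64.1). Gzma was lowest in isotype replicate 1 (0.857 FPKM against 1.82 to 2.28). Cxcl10 was highest in PD-1 Ab-treated replicate 4 (318 FPKM against 229 to 237). Pparg was lowest in isotype replicate 4 (0.79 FPKM against 1.28 to 1.45).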

How the results depend on the processing

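The 799 calls (758 higher, 41 lower) moved by over 1.5 times in the settings given here, and the cause was not tested. With no filter 450 genes were called (433 higher, 17 lower, 578 with no fold limit). Array weights gave 1773 (1627 and 146, 5221 with no fold limit). Without isotype replicate 3 and PD-1 Ab-treated replicate 5 there were 1468 (1381 and 87, 2635 with no fold limit), chosen after seeing the data. With 1 FPKM added 23 genes were lower, and in 1 fit of all 4 antibody groups 20, with 630 genes called with no fold limit. Leaving out 1 tumor gave 375 to 1534 calls, 361 to 1448 higher, 14 to 86 lower and 421 to 2571 with no fold limit; the lowest were without PD-1 Ab-treated replicate 3 and the highest without replicate 5. Beside these 2, counts over 1.5 times away came without PD-1 Ab-treated replicate 1 (445) or 2 (422) and isotype replicate 1 (491) or 5 (494). Of 111 called named genes 52 kept their call in all 22 settings.

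The replicate number does not pair the tumors, and with it as a block 316 genes were called (301 higher, 15 lower, 342 with no fold limit), of which 312 were among the 799. No tumor correlated best with its own number. The difference between days gave 0 genes, but 1 with no filter, 1048 with array weights and 0 with the block.

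Values near 0 changed sign. Cd79a (0.04) was -0.0129 after upper-quartile scaling and -0.24 with array weights, and -0.69 to 0.48 with 1 tumor left out. Fas (-0.03) was 0.0357 after scaling to a fixed sum, 0.0832 with array weights and 0.054 after adjustment for transcript length, and -0.0965 to 0.0325 with 1 tumor left out. Adpgk (-0.01) was 0.0485 after scaling to a fixed sum and -0.0583 to 0.0238 with 1 tumor left out. Ahr (0.07) was -0.0207 after adjustment for length, -0.165 with both tumors left out and -0.106 to 0.185 with 1 left out. Actb (-0.02) was 0.0429 after scaling to a fixed sum, 0.0128 with array weights, 0.0431 after adjustment for length and 0.0815 with both tumors left out, and -0.0727 to 0.0627 with 1 left out. With 1 FPKM added to both genes the log2 ratio of Gzmb to Cd8a was 0.018 and that of Ifng to Cd8a -0.81 (exact permutation test, adjusted p 0.0238). With 1 tumor left out Gzmb to Cd8a was -0.201 to 0.0521, Ifng to Cd8a -0.71 to -0.45, Prf1 to Cd8a 0.34 to 0.67 and Adgre1 to Ptprc -0.24 to 0.29; the Prf1 ratio passed without isotype replicate 2 (exact test, adjusted p 0.0357).

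Depth is unknown, and genes near the filter are the least certain.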
